A study of Caenorhabditis elegans with 4 samples.

Results

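The regions described here are 414 places in the Caenorhabditis elegans genome where chromatin immunoprecipitation with sequencing (ChIP-seq) for LAG-1 gave a peak with an antibody to FLAG and none with an antibody to GFP. They were selected on measured values. A FLAG peak was kept where its local background did not exceed 3 times the mean over the genome and where no deposited peak of either GFP library overlapped it by 1 bp or more. The 414 came from 875 deposited FLAG peaks, of which 649 had a low background by this limit, and from 2121 deposited peaks in the 3 lists. The low-background FLAG peaks that did overlap a GFP peak numbered 235, and they are the set that the 414 are compared with. Peaks of the first kind are called FLAG only here, and peaks of the second kind FLAG and GFP.

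All libraries came from whole Bristol worms, synchronised by bleaching and grown to the L4 larval stage on NA22 bacteria. The study made 1 immunoprecipitation with FLAG antibody (FLAG 1), 2 with GFP antibody (GFP 2 and GFP 3, as the labels number them) and 1 input DNA library without antibody, and its design text names the 3 immunoprecipitations as biological replicates. The labels name no allele or tag construct, so how LAG-1 carried the FLAG and GFP epitopes is not stated in them. With 1 FLAG library, the antibody, the worms and the library cannot be told apart, and no value of the FLAG-only peaks has a replicate. A peak in whole animals pools every tissue, so fewer cells bound and weaker binding per cell cannot be told apart either.

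LAG-1 is the CSL-type DNA-binding protein of the worm, named with its relatives CBF1/RBPJ in mammals and Suppressor of Hairless in flies. In Notch signalling, a ligand on a neighbouring cell leads to cleavage of the receptor, and the released intracellular part enters the nucleus and joins LAG-1 and a coactivator on DNA to turn target genes on. Worms have the Notch receptors GLP-1, which keeps germline stem cells dividing, and LIN-12, which acts in choices of cell fate such as those of the vulva. No genome or annotation of the files' build, ce10, was used here, so the peaks are given by position only. Whether they hold the CSL motif or lie near Notch target genes was not analysed here, and their label as LAG-1 sites was not checked against the motif.

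FLAG 1 kept 12186235 tags after duplicate removal, GFP 2 kept 6858855, GFP 3 kept 9404288 and the input kept 20457188. The genome-wide mean background expected from these tags was 7.18 tags of pileup in FLAG 1, 4.42 in GFP 2 and 5.02 in GFP 3. Pileup is the number of tags, each extended to the fragment length, that cover the summit of a peak. The fold enrichment is the caller's own ratio of the pileup plus 1 to the local background plus 1. Pileup, fold, q-value and width all come from the contrast that chose the peaks, so they are described below without a test. The folds are the authors', and they rank peaks within a list only.

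The FLAG-only peaks made up 63.8% of the low-background FLAG peaks (414 of 649, 95% Wilson interval 60 to 67.4, for counting error only). Among all deposited FLAG peaks, 49.5% overlapped no GFP peak, and among the 226 FLAG peaks with a higher background 19 overlapped none (8.41%, interval 5.45 to 12.8). Each of the 235 FLAG and GFP peaks overlapped GFP 2, and 67 of them also overlapped GFP 3. GFP 3, which had 76 low-background peaks, therefore decided the membership of no region, and GFP 2, which had 565, decided all of it.

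Most FLAG-only peaks were low and narrow. Their fold had a median of 3.11 (quartiles 2.69 and 3.86, range 2.07 to 10.4), against 3.30 in FLAG and GFP peaks (quartiles 2.81 and 5.03, range 2.06 to 11.3). Their pileup had a median of 27 tags and reached 84, against a median of 31 and a highest value of 106 in FLAG and GFP peaks. A pileup of 106 tags is the most that 1 tag per position and strand allows at the fragment length of 53 bp. None of the 414 reached 80% of that limit, while 12 of the 235 FLAG and GFP peaks did. The median −log10 q was 4.39, against 5.70. A −log10 q under 2 was found in 63 FLAG-only peaks (15.2%, interval 12.1 to 19) and 29 FLAG and GFP peaks (12.3%, interval 8.73 to 17.2).

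A fold above 4 was reached by 96 FLAG-only peaks (23.2%, interval 19.4 to 27.5) and 80 FLAG and GFP peaks (34.0%, interval 28.3 to 40.3), where 27.1% of all low-background FLAG peaks passed. A −log10 q above 10 was reached by 84 (20.3%) and 77 (32.8%), where 24.8% of all passed. The FLAG-only share was nearly level over the lower folds. It was 71.2% between 2- and 2.5-fold (57 of 80, interval 60.5 to 80), 68.1% between 2.5- and 3-fold (126 of 185), 64.9% between 3- and 4-fold (135 of 208) and 65.9% between 4- and 6-fold (83 of 126, interval 57.2 to 73.6). Above 6-fold it was 26% (13 of 50, interval 15.9 to 39.6). The strongest FLAG peaks were thus mostly seen with GFP as well, and peaks of 4- to 6-fold overlapped a GFP peak about as rarely as the weakest ones.

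**Figure D1:**
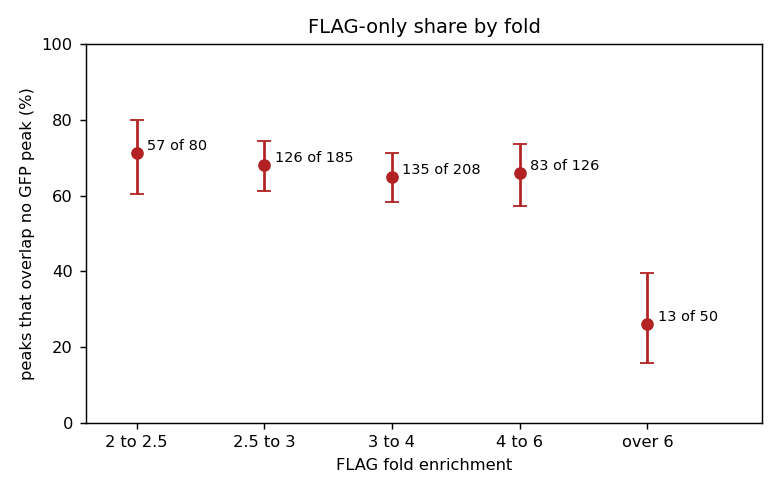
Share of low-background FLAG peaks that overlapped no GFP peak (y axis, percent) by FLAG fold enrichment (x axis, bins). Points are shares, bars are 95% Wilson intervals and the labels give counts; the first 4 bins lie between 64.9% and 71.2%, and the bin over 6-fold lies at 26%.

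Depth limits what the missing GFP peak can show for the weaker regions. Among peaks whose background was within 1% of the genome-wide mean, the lowest pileup listed was 19 tags in FLAG 1, 14 in GFP 2 and 16 in GFP 3. At the genome-wide mean these pileups equal folds of 2.45, 2.77 and 2.83. Of the 202 FLAG-only peaks at that background, 54 had a FLAG fold under 2.77 and 65 had one under 2.83. For these, an equal fold at the same background would not have been detectable in GFP 2, or in GFP 3, at the depth of those libraries. The other 137 had a FLAG fold of at least 2.83. Among FLAG peaks of that background and strength they made up 62.0% (137 of 221, interval 55.4 to 68.1). Because folds rank peaks within a list only, a FLAG fold of at least 2.83 does not show that a GFP peak was detectable there. Whether depth accounts for the missing GFP peaks was not tested, for these 137 or for the others. At higher backgrounds the lists hold lower folds, and no such floor was computed. The caller also lists no stretch shorter than its fragment length: the narrowest listed peaks were 53 bp (FLAG 1), 58 bp (GFP 2) and 48 bp (GFP 3) wide.

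Computed background was close to the genome-wide mean at most FLAG-only peaks, but its range was bounded on both sides. The rule capped it at 3 times that mean. The lowest background in each list equalled that list's mean, at 7.18 tags in FLAG 1, 4.42 in GFP 2 and 5.02 in GFP 3. The mean thus was the floor of these values, and a value at the mean does not show that the local input was that high. Background was within 1% of the mean at 202 FLAG-only peaks (48.8%), above 1.5 times the mean at 31 and above 2 times at 6. Among the 235 FLAG and GFP peaks these numbers were 112 (47.7%), 28 and 10. The peak nearest to the limit on its inner side lay on chromosome IV from 5691183 to 5691235, with a background of 2.51 times the mean, a pileup of 55 and a fold of 2.95. Next were one on III from 12909750 to 12910096, at 2.37 times, and one on IV from 15636247 to 15636301, at 2.23 times. Just outside the limit, and also without a GFP peak, were a region on II from 11826295 to 11826559 at 3.07 times the mean (fold 2.91) and a pair on I, from 1122734 to 1122828 at 3.48 times and from 1121542 to 1121617 at 3.62 times. The first of these, on IV from 5691183 to 5691235, sat 67 bp from a FLAG peak of raised background (7.11 times the mean). That neighbour had a pileup of 106, the most possible. GFP 2 and GFP 3 peaks lay on it, at backgrounds of 8.82 and 7.98 times their own means.

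FLAG-only peaks ran from 53 to 1276 bp in width. The median width was 105 bp (quartiles 66.2 and 209), against 127 bp in FLAG and GFP peaks (quartiles 74.5 and 233). Narrower than 106 bp, which is 2 fragment lengths, were 209 FLAG-only peaks (50.5%, interval 45.7 to 55.3) and 99 FLAG and GFP peaks (42.1%, interval 36.0 to 48.5). At or within 2 bp of the smallest width the caller allows were 35 FLAG-only peaks and 14 FLAG and GFP peaks. Several summits were found in 112 FLAG-only peaks (27.1%) and 72 FLAG and GFP peaks (30.6%). Neighbouring summits inside a FLAG-only peak lay a median of 103 bp apart (quartiles 85 and 148).

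Above 4-fold, narrow peaks were the largest width class of the FLAG-only peaks, by the cuts used here. Of the 96 FLAG-only peaks of that strength, 43 were narrower than 106 bp (44.8%, interval 35.2 to 54.7), 29 were wider than 400 bp (30.2%, interval 21.9 to 40.0) and 24 lay between. The narrow ones had a median width of 59 bp and a single summit each, and their folds ran from 4.01 to 6.60. The wide ones had a median width of 516 bp, 3 of the 29 had a single summit, and their folds ran from 4.04 to 10.4. Among the 80 FLAG and GFP peaks above 4-fold, 27 were narrow (33.8%, interval 24.3 to 44.6) and 25 were wide (31.2%, interval 22.2 to 42.1). The other 28 lay between (35%, interval 25.5 to 45.9). Both shapes therefore occurred in both sets. FLAG-only narrow peaks stopped at 6.60-fold, while narrow FLAG and GFP peaks reached 10.6-fold.

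**Figure D2:**
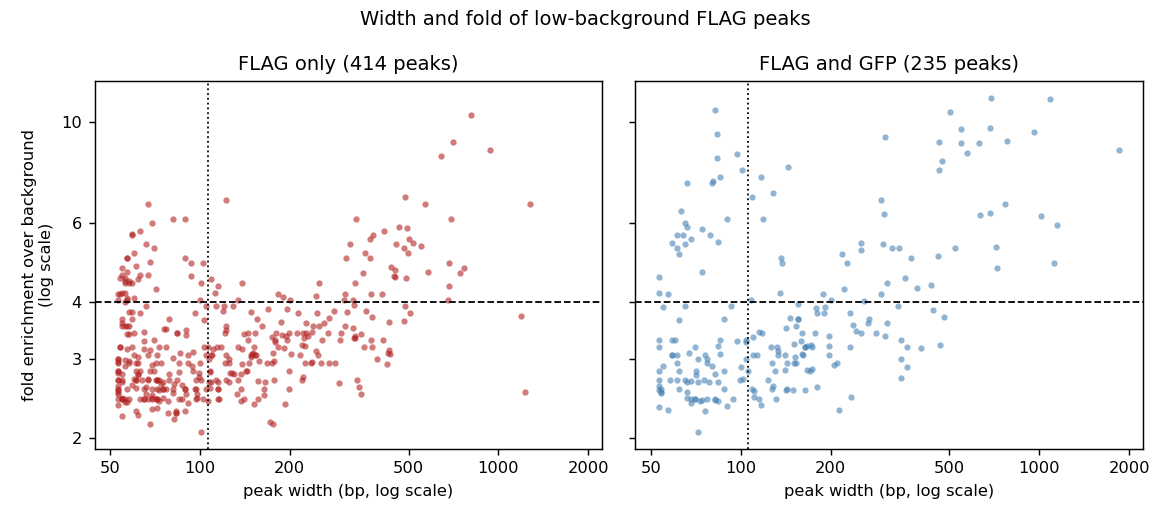
Fold enrichment (y axis, log scale) against peak width in bp (x axis, log scale) for the 414 FLAG-only peaks on the left and the 235 FLAG and GFP peaks on the right, 1 point per peak. The dotted line marks 106 bp and the dashed line 4-fold; of the peaks above the dashed line, 43 of 96 FLAG-only and 27 of 80 FLAG and GFP peaks lie left of the dotted line.

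The 25 FLAG-only peaks with the highest fold ran from 5.38- to 10.4-fold, with 13 wider than 400 bp, 8 narrower than 106 bp and 4 between. They lay on every chromosome: 7 on IV, 5 on X, 4 each on I and II, 3 on III and 2 on V. The median distance to the nearest GFP peak was 65734 bp, and 6 of the 25 had one within 10000 bp. Only the first of them had one within 1000 bp.

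That first peak, on chromosome X from 1503769 to 1504578, had summits of 10.4-fold (84 tags) at 1504039 and 7.34-fold (59 tags) at 1504294. A GFP 2 peak of 3.49-fold, from 1504620 to 1504700, began 42 bp past its end, with its summit 619 bp from the main FLAG summit. No GFP 3 peak was nearer than 122475 bp. The strongest region of the set is thus FLAG only by the overlap rule, and it had a GFP 2 peak beside it.

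The second peak, on X from 4147334 to 4148040, had 3 summits, the highest of 9.05-fold and 73 tags. GFP 2 listed 4 peaks to its left, the nearest 1618 bp away, with folds of 2.95, 3.25, 3.09 and 3.32 from the nearest to the farthest, and GFP 3 listed none within 117368 bp. The third, on X from 17419791 to 17420727, held 5 summits that reached 8.68-fold, and the nearest GFP peak was 84946 bp away. The fourth, on II from 8746936 to 8747576, reached 8.42-fold. It stood between peaks seen with both antibodies: a FLAG peak of 3.06-fold with GFP 2 at 6.27-fold and GFP 3 at 3.10-fold to its right, and a FLAG peak of 4.38-fold with GFP 2 at 2.77-fold to its left. Its own fold was the highest FLAG value in that cluster. The fifth, on III from 6415545 to 6416029, reached 6.85-fold, with no GFP peak within 70436 bp.

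**Figure D3:**
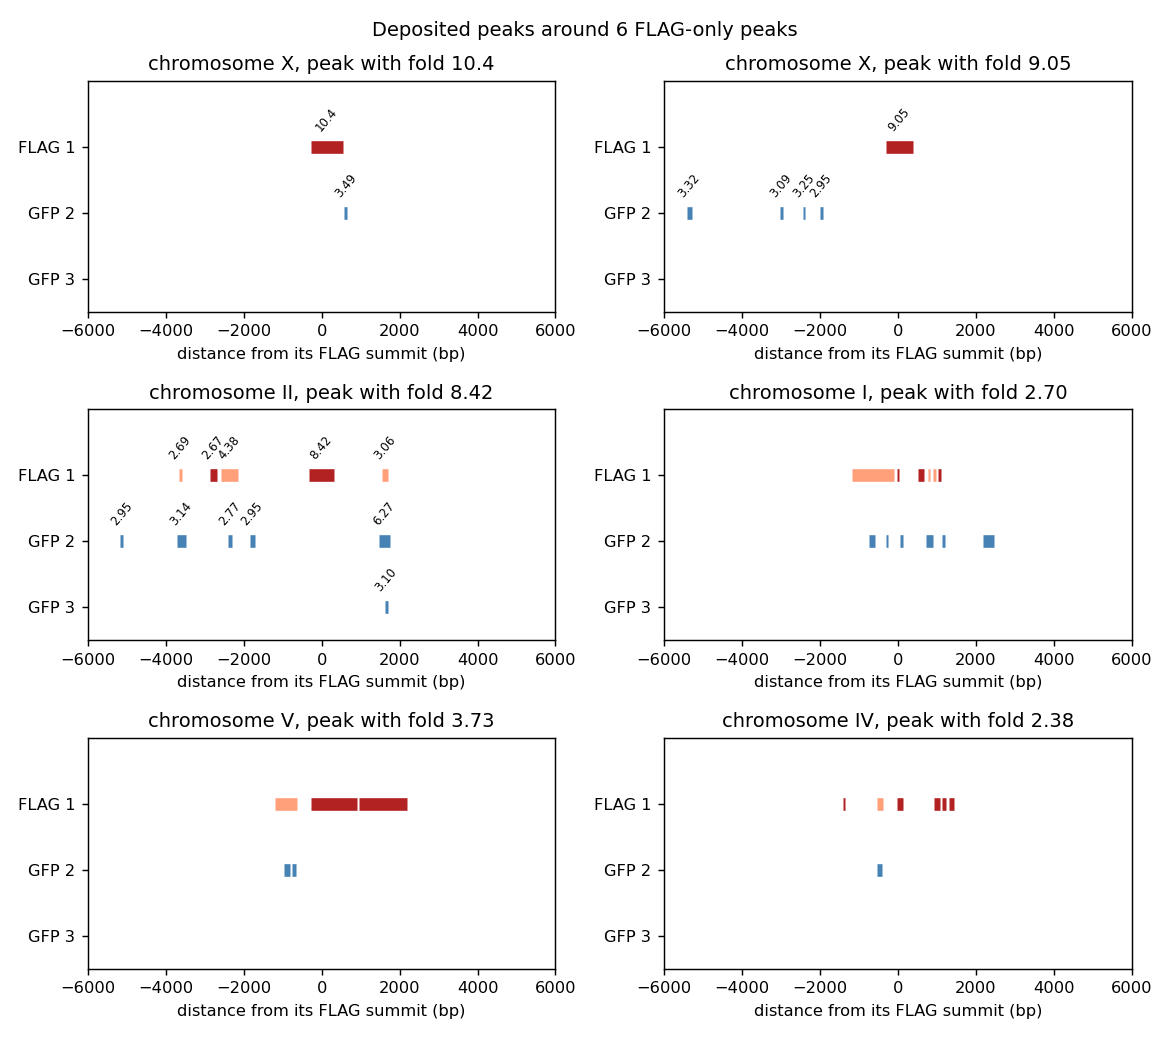
Deposited peaks of FLAG 1, GFP 2 and GFP 3 (rows) around 6 FLAG-only peaks, by distance in bp from the FLAG summit of the named peak (x axis). Dark red bars are FLAG-only peaks, light red bars other FLAG peaks and blue bars GFP peaks; numbers in the first 3 panels are folds, and the first panel shows the GFP 2 peak of 3.49-fold beside the FLAG peak of 10.4-fold.

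Wide regions further down the ranking held between 1 and 9 summits. On V from 6277159 to 6278434, the widest of all at 1276 bp, 9 summits reached up to 6.60-fold, and the nearest GFP peak was 9573 bp away. On I, a 566 bp peak from 7492604 to 7493169 reached 6.60-fold, a 693 bp peak from 7058780 to 7059472 reached 6.12-fold with 4 summits, and a 503 bp peak from 6093992 to 6094494 reached 5.50-fold. Their nearest GFP peaks were 17998, 20213 and 183061 bp away. On II, a peak from 11756651 to 11757144 reached 5.83-fold with a GFP 2 peak 1082 bp away, and one from 11149958 to 11150370 reached 5.75-fold with none within 346252 bp. On IV, peaks from 3645039 to 3645503 and from 2572747 to 2573262 reached 5.87- and 5.39-fold, the first with 4 summits and the second with 1. Among the peaks with the most summits were also one on IV from 2709544 to 2710312 (6 summits, 4.77-fold) and one on V from 11889070 to 11889745 (7 summits, 4.04-fold).

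The narrow ones among the first 25 were 59 to 89 bp wide and had 1 summit each. On II from 6495439 to 6495505, a 67 bp peak held 53 tags at 6.60-fold, the same pileup and fold as the 1276 bp region on V. On V from 11466720 to 11466808, 49 tags gave 6.12-fold over 89 bp. IV held 3 of them, from 4407184 to 4407264 (6.10-fold), from 8939945 to 8940013 (5.99-fold) and from 4454530 to 4454592 (5.75-fold). The remaining narrow ones reached 5.67-fold on I (1435709 to 1435767), 5.63-fold on X (10694341 to 10694399) and 5.38-fold on III (5814713 to 5814778). The nearest GFP peak to any of these 8 was 10258 bp away. Of width between these classes were a 122 bp peak on X (15382331 to 15382452, 6.73-fold), a 333 bp peak on III (1419627 to 1419959, 6.12-fold), and peaks of 381 and 372 bp on IV (10115892 to 10116272 at 5.63-fold, and 7083417 to 7083788 at 5.53-fold).

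At the other end, the weakest FLAG-only peak was on II from 13941224 to 13941324, at 2.07-fold with 30 tags. The lowest on the other chromosomes had 2.15-fold on III (5025088 to 5025262), 2.17-fold on IV (11400855 to 11401026), 2.27-fold on both V (1875522 to 1875604) and X (12664707 to 12664789), and 2.30-fold on I (10553018 to 10553106). All 6 of these had a background between 1.26 and 1.95 times the genome-wide mean. Their pileups ran from 22 to 30 tags.

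Most FLAG-only peaks (289 of 414) had no GFP peak within 10000 bp. GFP 2 listed 847 peaks in the whole genome, and the rule itself removed overlapping peaks. Whether these distances differ from those of random positions was not tested. The median distance between ends was 38732 bp to the nearest GFP 2 peak (quartiles 7269 and 102778) and 204606 bp to the nearest GFP 3 peak. A GFP peak lay within 100 bp of 10 FLAG-only peaks, within 500 bp of 24, within 1000 bp of 37 (8.94%) and within 10000 bp of 125 (30.2%), which leaves 377 with none within 1000 bp. The 37 had a median fold of 2.94, against 3.14 in the 377, and 7 of them passed 4-fold, against 89. Of the 37, 27 also had a FLAG and GFP peak within 1000 bp, so they flanked a region that both antibodies detected. Only 1 of the 377 did. A FLAG and GFP peak overlaps a GFP peak by definition, so this contrast largely follows from how the 37 were set apart.

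**Figure D4:**
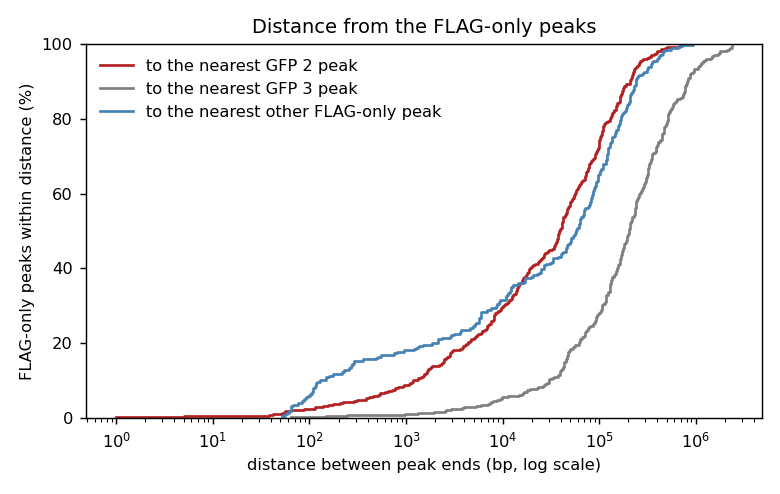
Percent of the 414 FLAG-only peaks (y axis) whose nearest GFP 2 peak, GFP 3 peak or other FLAG-only peak lies within a given distance in bp (x axis, log scale). The GFP 2 curve holds 37 peaks at 1000 bp and 124 at 10000 bp, and the GFP 3 curve 4 and 23.

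The nearest misses show how the 1 bp rule divides clusters. On I, a 55 bp FLAG-only peak from 12551065 to 12551119 ended on the base before a GFP 2 peak that began at 12551120. Further along I, 3 FLAG-only peaks from 7657902 to 7657968, from 7658451 to 7658602 and from 7658962 to 7659028 (2.70-, 3.18- and 3.06-fold) lay 5, 52 and 38 bp from GFP 2 peaks of 3.67-, 3.32- and 4.24-fold. Interleaved with them were FLAG and GFP peaks, the largest from 7656749 to 7657837 at 11.3-fold. Over these few kilobases there were 6 FLAG peaks and 6 GFP 2 peaks, and 3 of the FLAG peaks met the rule. Among the FLAG and GFP peaks, which the rule left out, the smallest overlap was 12 bp, in this same cluster from 7658820 to 7658907. Overlaps under 20 bp numbered 3 and overlaps under 50 bp numbered 19 among the 235.

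Some FLAG-only peaks lay close to each other. With neighbours joined where at most 1000 bp separated them, the 414 peaks formed 372 places, of which 33 held several peaks (75 peaks in all) and 339 held 1. The median distance to the nearest other FLAG-only peak was 57590 bp. The densest window of 20000 bp was on IV, where 6 of them lay between 11323590 and 11338792, with folds from 2.38 to 3.44. Their backgrounds were between 1.08 and 1.67 times the genome-wide mean, and the window also held a FLAG and GFP peak of 2.85-fold with GFP 2 at 2.70-fold. On V, wide FLAG-only peaks from 724906 to 726091 (8 summits, 3.73-fold) and from 726155 to 727377 (9 summits, 2.53-fold) stood 64 bp apart. Both lay to the right of a FLAG and GFP peak, from 723981 to 724554, of 8.56-fold in FLAG 1 and 4.91-fold in GFP 2. Their backgrounds were 1.69 and 2.23 times the mean, higher than at most of the set.

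FLAG-only peaks were spread over all 6 chromosomes, with the smallest number on X. They numbered 71 on I, 51 on II, 81 on III, 86 on IV, 82 on V and 43 on X. X thus held 10.4% of the FLAG-only peaks (interval 7.80 to 13.7), against 23.0% of the FLAG and GFP peaks (54 of 235, interval 18.1 to 28.8). Of the low-background GFP 2 peaks that overlapped no FLAG peak, 19.8% (67 of 338, interval 15.9 to 24.4) were on X. Seen the other way, FLAG-only peaks were 44.3% of the low-background FLAG peaks on X (43 of 97, interval 34.8 to 54.2) and 67.2% of those on the autosomes (371 of 552, interval 63.2 to 71.0). No autosome was below 58.0%, the value on II (51 of 88), whose interval of 47.5 to 67.7 overlapped that of X. The other 4 autosomes lay between 68.3% and 69.5%. No test was made of this difference, because peaks are not independent replicates and the overlap that chose the regions depends on where GFP peaks lie.

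The lower share on X was seen among weak and strong peaks alike. To 4-fold it was 49.2% on X (30 of 61, interval 37.1 to 61.4), against 69.9% on the autosomes (288 of 412, interval 65.3 to 74.1). Above 4-fold it was 36.1% on X (13 of 36, interval 22.5 to 52.4), against 59.3% on the autosomes (83 of 140, interval 51.0 to 67.1), and these intervals overlap. Although few in number, the FLAG-only peaks on X included the 3 highest folds of the set. The median fold of FLAG-only peaks was 3.30 on X, 3.18 on I and II, 3.10 on IV and 3.06 on III and V. Along the chromosomes, 61.8% of FLAG-only peaks (256 of 414, interval 57.1 to 66.4) and 59.1% of FLAG and GFP peaks (139 of 235, interval 52.8 to 65.2) lay in the central 50% of the span between the first and last deposited peak.

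**Figure D5:**
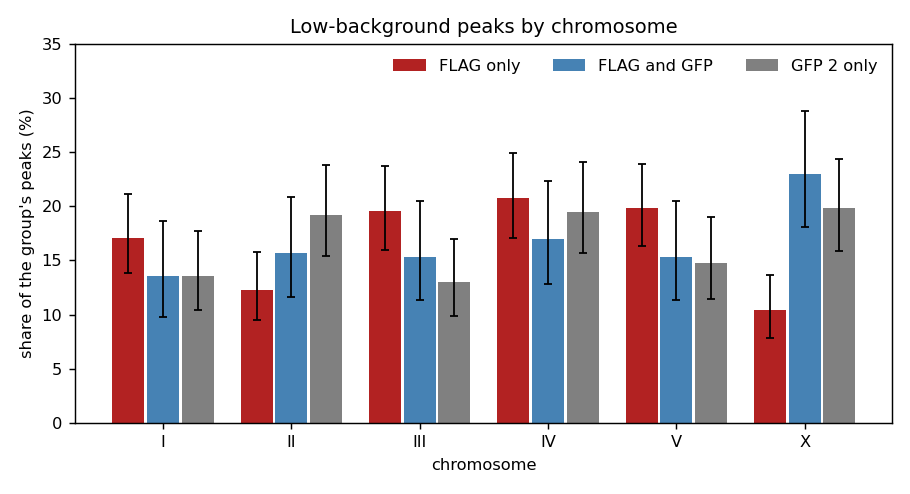
Share of each group's low-background peaks on each chromosome (y axis, percent; bars with 95% Wilson intervals) for 414 FLAG-only peaks, 235 FLAG and GFP peaks and 338 GFP 2 peaks that overlapped no FLAG peak. On X the shares are 10.4%, 23.0% and 19.8% in that order.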

How the data were processed

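Peak calling by the authors, per the file headers, set each immunoprecipitation against the same input in MACS 2.1.0.20140616, at a q-value limit of 0.05, with 1 tag kept per position, summit splitting and the larger library sampled down. The tag size was 49 bp and the fragment lengths 53, 58 and 48 bp in FLAG 1, GFP 2 and GFP 3; these are close to the tag size, and widths, pileups and folds rest on them. The build is ce10, per the submitters' processing notes. The aligner's name was not given in the sources used here. Deposited pileup is a signal in tags, the deposited fold enrichment is a ratio, and the deposited significance is the −log10 of the p-value and q-value. Positions are 1-based.

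The summit with the highest pileup stood for each peak. Background was (pileup + 1) / fold − 1, and the genome-wide mean was filtered tags times fragment length over 90000000. All deposited peaks entered, including those under the 2-fold limit of the design text. Distances run from the end of a peak to the start of the next, so adjoining peaks are 1 bp apart. Regions were named by rule: the 25 highest folds, the 5 widest, the 5 with most summits, the 3 next to the background limit, the 5 nearest a GFP peak, the extremes of each chromosome and the densest window. The regions and lists were chosen with earlier results of these data known. No test was run, since the lists hold no measure independent of the selection. Overlap, distance and background recovery were tested on simulated data. The planned motif and gene analysis needs a ce10 reference and was not run. Software: scipy 1.17.1, pandas 2.3.3 and numpy 2.4.6 under Python 3.11.15, with figures by matplotlib 3.10.9.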

Additional observations from a re-analysis of the deposited data

How the results depend on the processing

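In 16 alternatives, 49 of 64 values of the count, the FLAG-only share, the median fold and the share on X stayed within 1.5 times (the count) or within the 95% interval of the value reported. The share on X did so in all 16, between 10% and 13.6%. Its contrast with the FLAG and GFP peaks or the autosomes was not recomputed in these alternatives. The 49 values are no measure of stability, because some settings changed few or no regions. Without GFP 3, or with only GFP peaks above 2-fold, the same 414 regions were kept. All settings draw on the same peaks, and the intervals treat peaks as independent. Most of the values that moved did so under thresholds on FLAG strength, which kept fewer peaks. Above 3-fold, 231 regions were left with a median fold of 3.79. Above 4-fold there were 96, with a share of 54.5% and a median of 4.67. At a −log10 q above 5 there were 184 (58.8%, median 4.04), and above 10 there were 84 (52.2%, median 4.85). Counting a GFP summit within 1000 bp as shared gave a share of 58.7%. Peaks at least 2 fragment lengths wide, a setting chosen after seeing the data, left 205 with a median of 3.33. Leaving out a GFP library gave 414 (without GFP 3) to 582 (without GFP 2) regions, shares of 63.8% to 89.7%, medians of 3.11 to 3.15 and 10.4% to 13.6% on X. All 25 regions with the highest fold met the rule in 13 of the 16 alternatives, but most of these 13 could not have removed any. The lowest fold of the 25 was 5.38 and their lowest −log10 q was 15.8, above every strength threshold used. Settings with a wider background limit, fewer GFP peaks or a stricter overlap can only add regions. The number was 24 where a GFP peak within 500 bp or a GFP summit within 1000 bp counted as shared. With the width limit it was 17. No paired analysis was possible because FLAG and GFP share no replicate number and no test was run. Depth limits the GFP lists. Of the 202 FLAG-only peaks at mean background, 54 have folds under 2.77, which the lowest pileup GFP 2 listed there equals at the mean.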
